A study of Homo sapiens with 8 samples.

Results

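Antisense lncRNA genes named after a sense gene with the ending -AS and one digit were followed through release of transcription from DRB, with and without UV, in lung fibroblasts with and without a knockdown of ZFAS1. All 8 tables of GRO-seq counts were searched for gene names with this ending on autosomes, EPB41L4A-AS1 excepted, and each gene was represented by its longest transcript. The search found 360 antisense genes among 19351 gene names, and 335 of them could be paired with the sense gene named before the hyphen, which gave 328 different sense genes. A further 10 such genes lay on sex chromosomes and were left out. The rule reads the name and the chromosome of a gene.

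GRO-seq measures RNA that engaged polymerases extend in isolated nuclei, so its counts reflect transcription and not the amount of finished RNA. The cells were human fetal lung fibroblasts immortalised with SV40 (MRC5 in the labels, MRC5_VA in the methods), either with a lentiviral shRNA against ZFAS1, a snoRNA host lncRNA (KD), or wild type (WT). Every group was held in 100 µM DRB for 3.5 h, which stops RNA polymerase II near gene starts, then received 10 J/m2 of UV-C or none, and was taken at 40 or 10 min after the drug was removed, with a run-on of 5 min. Each of the 8 combinations of cell, UV and time was 1 library, and nothing shows that any of them came from a separate culture, so p-values measure only the spread between these libraries.

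Antisense lncRNA genes lie on the strand opposite to a neighbouring, mostly protein-coding gene. Many start beside the start of that gene and are read away from it, since human promoters often fire in both directions, whereas others begin inside the sense gene or run into its end. Members such as CDKN2B-AS1 (also called ANRIL) are known to act on their neighbours, and for most of the others no function is established. After DRB is removed, polymerases move into gene bodies as a wave, and bulky UV lesions block them.

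By position, 110 of the 360 antisense genes were head to head with their sense gene, meaning that the starts lay within 1000 bp of each other. A further 76 lay wholly inside the sense gene, 48 overlapped its end (tail to tail), 31 overlapped its start from farther away, 14 held the sense gene inside their own span, 56 did not touch it and 25 could not be paired. Coordinates are those of the tables, on hg38. All 335 pairs were on opposite strands and 223 of them overlapped. The median span was 13.6 kb for the antisense genes, 50.2 kb for their sense genes and 23.8 kb for all genes, and the antisense genes reached from 1144 bp to 664 kb. None had more than 10% of its span in a gene of the same strand. In GENCODE v44, 355 of the 359 with a matching transcript were typed as lncRNA, and 21 carried another name there, 14 of them ending in -DT, the newer form for divergent transcripts.

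The starts of 5 antisense genes are shown here as examples that lie near the start of a gene on the opposite strand. They were picked by hand, outside the rule by which genes were named. Each line gives 250 bases before and 50 after the start annotated by RefSeq on GRCh38, read along the strand of the antisense gene. Capitals mark matches, on either strand, to the GC box GGGCGG, the CCAAT box CCAAT, the cyclic AMP response element TGACGTCA or the AP-1 site TGAGTCA.
ZNF561-AS1: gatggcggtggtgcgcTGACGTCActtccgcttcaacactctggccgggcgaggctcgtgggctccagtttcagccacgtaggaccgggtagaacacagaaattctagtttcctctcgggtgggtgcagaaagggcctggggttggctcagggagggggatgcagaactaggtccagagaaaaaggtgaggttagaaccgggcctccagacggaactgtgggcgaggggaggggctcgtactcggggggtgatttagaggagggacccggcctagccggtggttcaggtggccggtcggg
TSC22D1-AS1: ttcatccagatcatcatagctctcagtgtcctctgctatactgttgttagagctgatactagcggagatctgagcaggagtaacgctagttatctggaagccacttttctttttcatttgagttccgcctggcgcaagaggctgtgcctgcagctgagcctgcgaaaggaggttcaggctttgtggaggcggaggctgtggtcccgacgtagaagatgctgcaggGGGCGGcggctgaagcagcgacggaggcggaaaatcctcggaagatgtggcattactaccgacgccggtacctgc
RNASEH1-AS1: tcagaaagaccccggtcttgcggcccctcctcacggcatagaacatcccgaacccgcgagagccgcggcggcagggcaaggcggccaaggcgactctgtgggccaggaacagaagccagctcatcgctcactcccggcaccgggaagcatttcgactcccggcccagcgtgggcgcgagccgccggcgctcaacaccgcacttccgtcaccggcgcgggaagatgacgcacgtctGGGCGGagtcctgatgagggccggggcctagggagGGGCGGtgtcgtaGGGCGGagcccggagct
THAP9-AS1: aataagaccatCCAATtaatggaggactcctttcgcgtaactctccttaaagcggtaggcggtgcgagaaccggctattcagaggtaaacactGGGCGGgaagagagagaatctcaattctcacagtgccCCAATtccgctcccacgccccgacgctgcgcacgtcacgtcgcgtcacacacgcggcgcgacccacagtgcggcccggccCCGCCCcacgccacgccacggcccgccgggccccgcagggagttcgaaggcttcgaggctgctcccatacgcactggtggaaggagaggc
FGD5-AS1: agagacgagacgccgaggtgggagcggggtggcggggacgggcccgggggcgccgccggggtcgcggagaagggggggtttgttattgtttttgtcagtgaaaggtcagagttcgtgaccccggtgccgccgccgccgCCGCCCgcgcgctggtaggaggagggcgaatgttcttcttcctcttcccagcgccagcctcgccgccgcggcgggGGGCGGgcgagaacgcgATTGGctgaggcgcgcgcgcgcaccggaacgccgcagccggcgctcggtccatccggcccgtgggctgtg

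ZNF561-AS1 lies at chr19:9621232-9621531 on the plus strand, and the start of ZNF561, read the other way, is the first base of the window, 250 bp upstream. Its single match was to the cyclic AMP response element. TSC22D1-AS1 is at chr13:44575646-44575945 on the plus strand. The start of TSC22D1 lies 434 bp downstream of it, so the starts of this pair overlap. RNASEH1-AS1, at chr2:3558137-3558436 on the plus strand, held 3 GC boxes and had the start of RNASEH1 54 bp upstream. THAP9-AS1, at chr4:82900867-82901166 on the minus strand, held 2 GC boxes and 2 CCAAT boxes, with the start of THAP9 181 bp downstream. FGD5-AS1, at chr3:14947456-14947755 on the minus strand, had the start of NR2C2, not of FGD5, 224 bp upstream, and held 2 GC boxes and 1 CCAAT box.

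Such windows were matched to 236 of the antisense genes and compared with 34943 windows of all genes. A GC box was found in 44.5% of the antisense windows and 44.9% of all windows, and a CCAAT box in 35.6% and 34.6%. The TATA box TATAAA was found in 6.78% of the antisense windows against 11.6% of all windows, the cyclic AMP response element in 2.54% against 1.84%, and the AP-1 site in 3.81% against 4.96%. Windows of the 76 head to head members had a median GC content of 63.8% and a GC box in 53.9%. In those of the 49 members inside the sense gene the median was 49.0% and the share 24.5%. The searches read both strands, no motif holds another, and a match is a description of the sequence only.

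The libraries held 10.2 to 21.1 M reads over all genes, and the antisense genes took 0.402% of them in WT without UV at 40 min and up to 0.688% in KD without UV at 10 min. WT without UV at 40 min was the deepest library and stood apart. At 90 loci of tissue-restricted families that should be silent in fibroblasts, its median density was 0.0481 CPM per kb (counts per M reads, scaled by TMM), against 0.114 to 0.159 CPM per kb in the other 7. Since no condition was repeated, the library cannot be told apart from its condition. Fibroblast markers had at least 3 times the silent density in all 8 libraries for 8 of 10 genes, immune markers for 0 of 5, epithelial for 1 of 5, endothelial for 3 of 5 and muscle for 1 of 4. ZFAS1 had 694 to 1596 CPM in KD and 507 to 1789 CPM in WT libraries, with a log2 difference of 0.21 ± 0.35 (SE, edgeR adjusted p = 1.00). An shRNA acts on finished RNA, so nascent counts do not check the knockdown, and KD below means the libraries so labelled.

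The sources used here do not say how strand entered the counts. In 172 of 1310 cases where a transcript lay inside a gene of the opposite strand, the inner one had more reads than the outer one in at least 1 library, and in 52 cases in all 8. Among 40961 such cases on the same strand this was never seen. Reads of opposite strands were therefore kept apart, at least in part. Of the 76 antisense genes inside their sense gene, 3 had more reads than it in at least 1 library, and a small carry-over of sense reads into the antisense count was not tested.

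Most antisense genes were transcribed at a low level. Only 59 of the 360 (16.4%) had at least 3 times the silent density in all 8 libraries, against 140 of the 328 sense genes (42.7%) and 7004 of all 19351 genes (36.2%). After the filter on low counts 290 were tested and 70 were not, 39 had no read in at least 1 library and none lacked reads in all 8. A low count in bulk RNA may come from fewer cells with the transcript or from less of it per cell, which cannot be told apart here.

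THAP9-AS1 was the most densely transcribed of the 360, at 29.9 ± 8.67 CPM per kb (SD over 8 libraries). It is head to head with THAP9, a gene derived from a DNA transposase, and its level per kb was 5.51 to 7.12 above that of THAP9 on the log2 scale in all 8 libraries. FGD5-AS1 followed at 9.37 ± 3.48 and ZNF561-AS1 at 6.98 ± 3.71 CPM per kb. BFSP2-AS1 (4.53), TSC22D1-AS1 (4.33), ZNF503-AS2 (4.07) and LEF1-AS1 (3.36 CPM per kb), named for a lens filament gene and 3 genes of transcriptional regulators, were also among the 8 highest. The SDs of neighbours among those named overlap from FGD5-AS1 onward, and THAP9-AS1 alone stands clear of the next.

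Per kb, antisense genes lay below their sense genes. Over the 271 pairs with both genes tested, the median log2 level of antisense over sense was -0.99 ± 0.14 (SD over 8 libraries). The antisense gene was denser in all 8 libraries in 38 pairs and the sense gene in 143. The gap was widest where the antisense gene lay inside the sense gene (-1.46, 54 pairs) or head to head with it (-1.30, 86 pairs). It was -1.0 for 45 tail to tail pairs, -0.65 for 29 pairs that overlapped at the start, -0.23 for 43 pairs that did not touch and -0.04 where the sense gene lay inside (14 pairs). Without overlapping pairs the median was -0.64, and with the silent density subtracted it was -1.57.

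**Figure D1:**
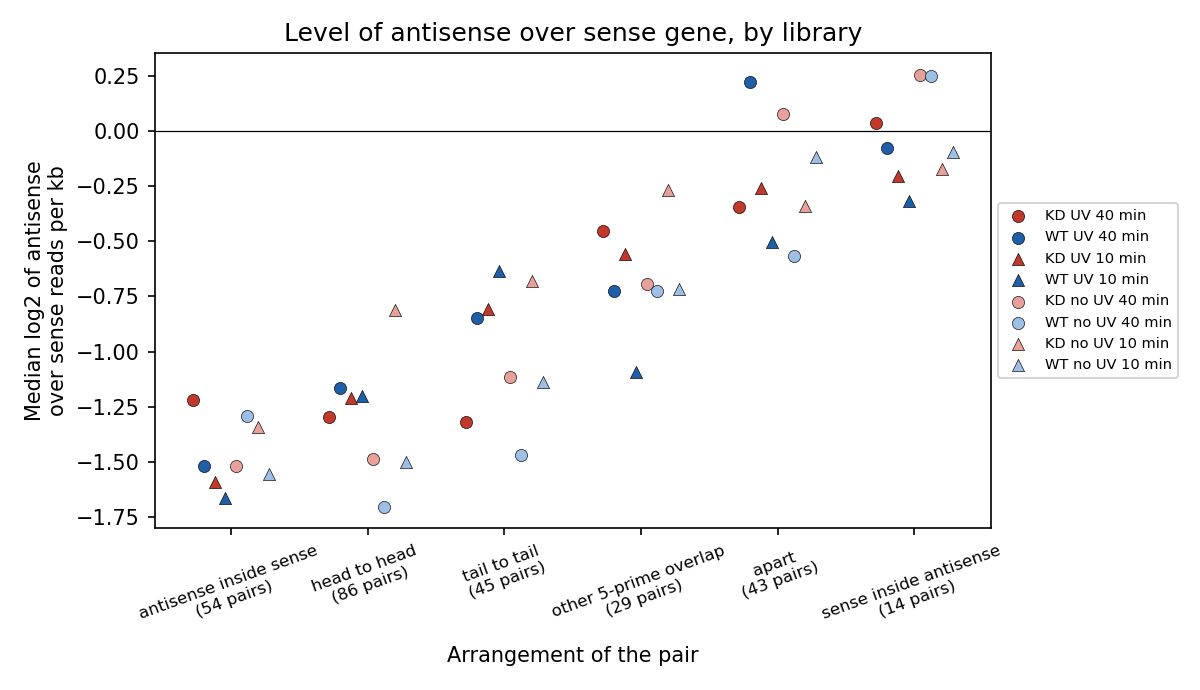
Median log2 ratio of reads per kb, antisense over sense gene, in each of the 8 libraries (points) by arrangement of the pair. Pairs inside the sense gene or head to head with it lie lowest, at -1.46 and -1.30 over the libraries, and pairs with the sense gene inside lie at -0.04.

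Several members known from other work had many reads in these fibroblasts. CDKN2B-AS1, opposite the cell cycle inhibitor p15, had 205 and 157 CPM in KD with UV at 40 and 10 min, against 159 and 142 CPM in WT, and without UV 208 and 137 CPM in KD, against 169 and 133 CPM in WT. NR2F2-AS1, beside the gene of the nuclear receptor COUP-TFII, lay between 106 and 175 CPM and GNAS-AS1, of the imprinted GNAS locus, between 34.9 and 54.5 CPM. Both kept within a narrow range over all 8 libraries. MCM3AP-AS1 was less even, with 10.9 CPM in WT without UV at 40 min and 32.2 to 68.6 CPM in the other 7.

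The first comparison asked which antisense genes gained or lost nascent reads between 40 and 10 min after DRB removal. None of the 290 antisense genes passed the test (edgeR quasi-likelihood, adjusted p threshold 0.05), against 0.146% of all 17840 genes, all of them higher at 40 min. At an unadjusted p under 0.05 there were 56 antisense genes (19.3%), against 21.9% of all genes. DESeq2 called 20 (14 higher, 6 lower; 6.90%, against 9.21% of all genes), and limma-voom called 0. Leaving out WT with UV at 40 min gave 25 calls in edgeR (8.74%, against 9.93% of all genes), and leaving out KD with UV at 10 min gave 15 (5.07% against 5.04%), KD without UV at 40 min 13 (4.50% against 4.01%) and WT with UV at 10 min 5 (1.71% against 1.47%). The median log2 difference was -0.35 for the antisense genes, -0.10 for the sense genes, -0.10 for all genes and -0.61 for the silent loci. Between the WT libraries without UV alone these were -0.73 for the antisense genes, -0.45 for all genes and -1.45 for the silent loci.

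THUMPD3-AS1 came closest among those with more reads at 40 min. It holds THUMPD3, the gene of a tRNA methyltransferase, inside its span and runs over chr3:9349689-9396654. With UV it had 86.2 CPM at 40 min and 30.8 CPM at 10 min in KD, and 48.6 and 23.9 CPM in WT. Without UV it had 108 and 18.2 CPM in KD, and 137 and 32.4 CPM in WT. All 4 libraries at 40 min lay above all 4 at 10 min, by 1.79 ± 0.36 on the log2 scale (edgeR adjusted p = 0.0507). How many of all genes separate in this way was not counted, here or for the genes named below.

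PSMA3-AS1, at the end of a proteasome subunit gene, had 58.2 and 27.8 CPM at 40 and 10 min in KD with UV and 42.3 and 24.9 CPM in WT with UV. In KD without UV it had 103 CPM at 40 min and 18.8 CPM at 10 min, and in WT without UV 126 and 31.6 CPM. These groups did not overlap either, with a difference of 1.56 ± 0.36 (edgeR adjusted p = 0.0571), and for RBM26-AS1, opposite a gene for an RNA-binding protein, the difference was 1.55 ± 0.32 (edgeR adjusted p = 0.0509). In the other direction the smallest p-values belonged to TMEM108-AS1 (-2.70), LINGO1-AS1 (-1.51) and MAPT-AS1, opposite the tau gene (-1.33, edgeR adjusted p = 0.106). The value of TMEM108-AS1 was -1.29 without KD no UV at 10 min (edgeR adjusted p = 0.625). Head to head members had a median of -0.09 and their sense genes 0.39, and members inside a sense gene -0.49 against -0.56 for their sense genes.

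The ratio of antisense to sense reads asked whether the partners of a pair gained reads unequally. For time, 0 of 271 pairs passed (limma, adjusted over 2653 pairs of opposite-strand neighbours, 0% called), with 66 at an unadjusted p under 0.05. Unadjusted shares over all 2653 pairs are not given, for time or for the UV and knockdown ratios below. No excess among named pairs can be read from such counts. SCAMP1-AS1 (1.68), UBAC2-AS1 (2.12) and SLC25A25-AS1 (-1.84) had the smallest p-values, each at a limma adjusted p of 0.171. Antisense and sense gene had the same sign of change in 169 of 271 named pairs (62.4%) and in 63.0% of the 2382 other opposite-strand neighbours.

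UV, set against no UV over both cells and times, changed no antisense gene past the threshold, and 0% of all genes (edgeR; 0 by DESeq2 and 0 by limma-voom). At an unadjusted p under 0.05 in edgeR there were 7 antisense genes (2.41%, against 1.70% of all genes). The median log2 difference was 0.17 for the antisense genes and 0.12 for all genes. STX17-AS1, opposite the gene of an autophagy SNARE, had the smallest p-value upward. It had 6.70 and 7.38 CPM in KD with UV at 40 and 10 min, against 3.57 and 4.30 CPM without UV. In WT it had 8.28 and 9.84 CPM with UV, against 3.29 and 5.64 CPM without. All 4 UV libraries were above all 4 others, by 0.95 ± 0.33 (edgeR adjusted p = 0.993).

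ZNF687-AS1 (1.36) and PLCE1-AS2 (1.00) followed upward, and SLC16A1-AS1 (-0.85), EPHA5-AS1 (-0.90) and SDCBP2-AS1 (-0.63) downward, at the same edgeR adjusted p. SLC16A1-AS1 is head to head with the gene of the lactate transporter MCT1. At 40 min it had 7.07 CPM in KD with UV against 15.7 CPM in KD without, and 4.37 CPM in WT with UV against 14.8 CPM in WT without. At 10 min the values were 3.56 against 3.97 CPM in KD and 2.92 against 3.41 CPM in WT, so the groups overlapped over both times. The antisense to sense ratio was called in 0 of 271 pairs for UV (limma, 8 at an unadjusted p under 0.05, 0% of 2653 pairs).

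Knockdown, set against WT over UV and time, likewise gave 0 calls among 290 antisense genes, beside 0% of all genes (edgeR; 0 by DESeq2 and 0 by limma-voom). At an unadjusted p under 0.05 in edgeR there were 4 antisense genes (1.38%, against 0.471% of all genes). Medians were 0.17 for the antisense genes and 0.04 for all genes. The additive fit counts as spread any departure of KD over WT with UV from that without. That departure was called in 8.99% of all genes (edgeR, below). The 0 calls for UV and for knockdown therefore do not show that either had no effect. DPP10-AS1, opposite a gene of a potassium channel subunit, had 1.31 and 1.02 CPM in KD with UV at 40 and 10 min, against 0.602 and 0.797 CPM in WT, and without UV 1.22 and 1.30 CPM in KD against 0.483 and 0.389 CPM in WT. The KD libraries lay above the WT libraries, by 1.10 ± 0.46 (edgeR adjusted p = 1.00). DPP10-AS1 was named for its small p-value, its low counts limit the precision of this difference, and how many genes separate so was not counted. C21orf62-AS1 had fewer CPM in KD than in WT in each matched pair (-1.07 ± 0.40). For the ratios 0 of 271 pairs were called (limma, 6 at an unadjusted p under 0.05, 0%). The term for UV by time called 0 antisense genes and 0% of all genes (edgeR; 0 by DESeq2 and 0 by limma-voom). For this term 7 antisense genes had an unadjusted p under 0.05 in edgeR (2.41%, against 2.72% of all genes). The smallest p-values upward were those of AGAP2-AS1 (3.23), ZRANB2-AS1 (2.99) and ZNF571-AS1 (2.93).

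The knockdown by UV term asks whether the KD over WT difference with UV departs from that without UV. Here 21 of 290 antisense genes were called (edgeR), 3 higher (1.03%) and 18 lower (6.21%), against 8.99% of all genes, 5.04% higher and 3.95% lower. An unadjusted p under 0.05 in edgeR was found for 31.0% of the antisense genes, against 38.7% of all genes. The median over the antisense genes was -0.54, against 0.08 for the sense genes, 0.11 for all genes and -1.15 for the 66 silent loci tested, of which 5 were called lower. In 17 of the 18 lower genes KD was below WT in both pairs with UV and above it in both pairs without UV, and TSC22D1-AS1 was the exception, at 0.03 with UV at 40 min. The 3 higher genes ran the other way in all 4 pairs. A call on this term favours such a pattern, and its share among the called genes of all kinds was not counted.

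**Figure D2:**
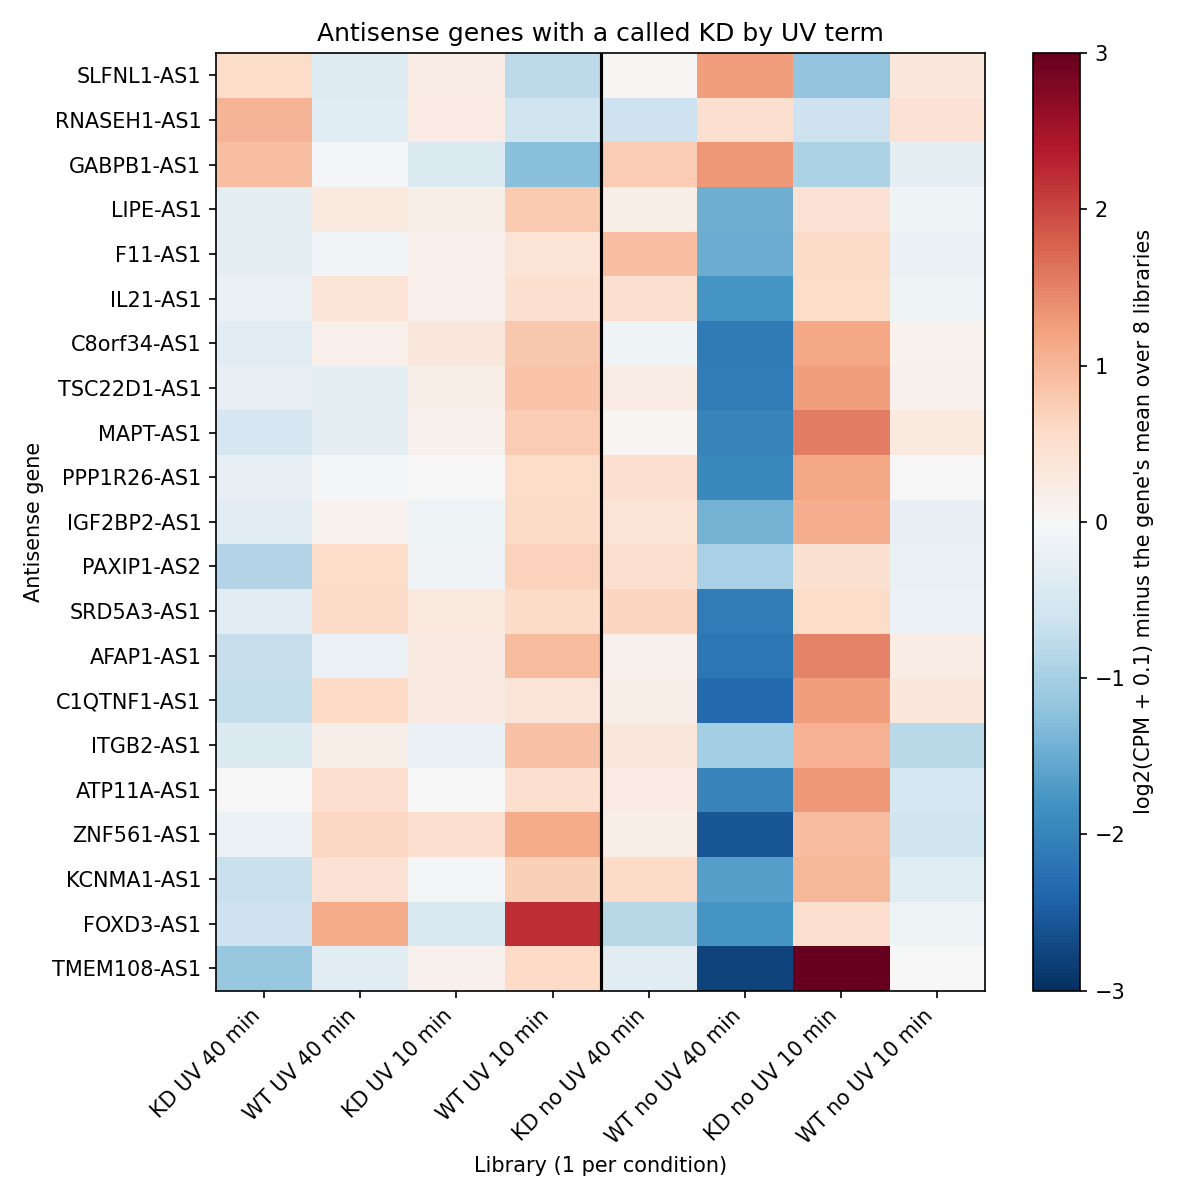
Log2 CPM (a small constant added) in each of the 8 libraries for the 21 antisense genes called for the knockdown by UV term. Each value is shown minus the gene's mean over the 8 libraries, with colours that stop at 3 above and below 0. The 3 called higher have KD above WT with UV and below it without UV, and 17 of the 18 called lower have the reverse.

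These calls depended on single libraries. All 18 lower genes had their lowest CPM in WT without UV at 40 min, as did 166 of the 290 antisense genes (57.2%), 42.3% of all tested genes and 56 of the 66 silent loci, and 12 of the 18 had their highest in KD without UV at 10 min. Without WT no UV at 40 min there were 20 calls, 10 higher and 10 lower, of which 13 were among the 21, with 14% of all genes called. Leaving out KD without UV at 10 min or KD with UV at 10 min gave 0 calls, KD without UV at 40 min 1 and KD with UV at 40 min 2, with at most 0.157% of all genes called in these fits. Leaving out WT with UV at 40 min gave 15 calls (5.24%, against 8.68% of all genes), WT with UV at 10 min 77 (26.3% against 31.0%) and WT without UV at 10 min 99 (33.6% against 34.2%). All 21 kept their sign in each of these fits. With each matched pair of KD and WT libraries (same UV and time) as a block, an alternative chosen after seeing the data, there were 70 calls (17 higher, 53 lower; 24.1%), against 35.2% of all genes.

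ZNF561-AS1, the divergent partner of a zinc finger gene, was the most abundant of the 18. It spans chr19:9621519-9632651 on the plus strand. With UV it had 55.9 CPM in KD and 97.5 CPM in WT at 40 min, and 88.3 CPM in KD and 136 CPM in WT at 10 min. Without UV it had 72.6 CPM in KD and 10.5 CPM in WT at 40 min, and 119 CPM in KD and 41.7 CPM in WT at 10 min. The KD library was thus the lower of each pair with UV and the higher of each pair without, and the term was -2.79 ± 0.54 (edgeR adjusted p = 0.042). Its sense gene ZNF561, at chr19:9607329-9621232, had 29.1 against 15.9 CPM and 17.9 against 13.3 CPM with UV, and 24.0 against 27.5 CPM and 11.2 against 19.3 CPM without, KD before WT and 40 before 10 min. The order was the reverse of that of ZNF561-AS1 in all 4 pairs (1.11, edgeR adjusted p = 0.0949).

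FOXD3-AS1, named for a forkhead factor of the neural crest, is at chr1:63320884-63324441. With UV it had 3.86 CPM in KD against 12.9 CPM in WT at 40 min and 4.24 against 28.2 CPM at 10 min. Without UV the values were 3.31 against 1.69 CPM and 8.51 against 5.35 CPM. The largest gap was in the UV pairs, and the term was -3.0 ± 0.58 (edgeR adjusted p = 0.042). TSC22D1-AS1 overlaps the start of TSC22D1, a gene responsive to TGF-beta, and spans chr13:44575893-44580432. It had 14 CPM in KD and 13.7 CPM in WT with UV at 40 min, 18.7 and 29.9 CPM with UV at 10 min, 19.5 and 3.77 CPM without UV at 40 min, and 39.7 and 18.0 CPM without UV at 10 min. Only the pairs without UV separated clearly (-1.94 ± 0.55, edgeR adjusted p = 0.0459), while TSC22D1 stayed between 126 and 216 CPM.

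TMEM108-AS1 had the most negative term, -4.46 ± 1.06 (edgeR adjusted p = 0.0424), which rested on 1 library. It had 0.510 and 1.36 CPM in KD with UV at 40 and 10 min, against 0.979 and 1.95 CPM in WT. Without UV it had 0.957 CPM in KD at 40 min and 19.0 CPM in KD at 10 min, against 0.0966 and 1.26 CPM in WT. Without KD no UV at 10 min the term was -2.61 (edgeR adjusted p = 0.198).

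KCNMA1-AS1 (-2.84), ATP11A-AS1 (-2.76) and ITGB2-AS1 (-2.57) completed the 6 lowest terms. They are antisense to the genes of a calcium-activated potassium channel, a phospholipid flippase and the beta chain of leukocyte integrins, and each stayed under 5 CPM in all 8 libraries. The other lower calls, named after their values were seen, were C1QTNF1-AS1 (-2.39), AFAP1-AS1 (-2.31), SRD5A3-AS1 (-2.27), PAXIP1-AS2 (-2.23), IGF2BP2-AS1 (-2.18), PPP1R26-AS1 (-2.07), MAPT-AS1 (-1.99), C8orf34-AS1 (-1.93), IL21-AS1 (-1.89), F11-AS1 (-1.82) and LIPE-AS1 (-1.65). Of their sense genes, AFAP1 binds actin filaments, SRD5A3 serves protein glycosylation, IGF2BP2 binds mRNA, IL21 and F11 encode a T cell cytokine and a clotting factor, and LIPE encodes hormone-sensitive lipase.

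Upward, SLFNL1-AS1 (chr1:41014590-41043890) had the largest term. In KD it had 53.9 and 42.3 CPM with UV at 40 and 10 min, against 28.1 and 21.1 CPM in WT. Without UV it had 37.1 and 15.9 CPM in KD, against 86.7 and 45.3 CPM in WT. KD was the higher of each pair with UV and the lower of each pair without, and the term was 2.32 ± 0.46 (edgeR adjusted p = 0.042).

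RNASEH1-AS1 is the divergent partner of the gene for RNase H1, which removes RNA from RNA-DNA hybrids. It had 4.30 and 2.46 CPM in KD with UV, against 1.58 and 1.33 CPM in WT, and without UV 1.30 and 1.30 CPM in KD, against 2.90 and 2.82 CPM in WT. The term was 2.31 ± 0.66 (edgeR adjusted p = 0.0466), and that of RNASEH1 was 1.18 (edgeR adjusted p = 0.0734). Its low counts limit the precision of this difference.

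GABPB1-AS1 starts 59 bp from GABPB1, the gene of a subunit of the transcription factor GABP, and runs over chr15:50355467-50372202. With UV it had 46.1 CPM in KD and 23.7 CPM in WT at 40 min, and 18.1 CPM in KD and 10.1 CPM in WT at 10 min. Without UV it had 41.1 CPM in KD and 60.6 CPM in WT at 40 min, and 12.6 CPM in KD and 20 CPM in WT at 10 min. All 4 pairs followed the term of 1.51 ± 0.43 (edgeR adjusted p = 0.0464), and GABPB1 had the same order in all 4, with 63.4 against 43.1 CPM and 32.4 against 27.4 CPM with UV and 92.0 against 118 CPM and 23.4 against 39.8 CPM without. For 40 over 10 min GABPB1-AS1 had a difference of 1.47 (edgeR adjusted p = 0.0585).

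**Figure D3:**
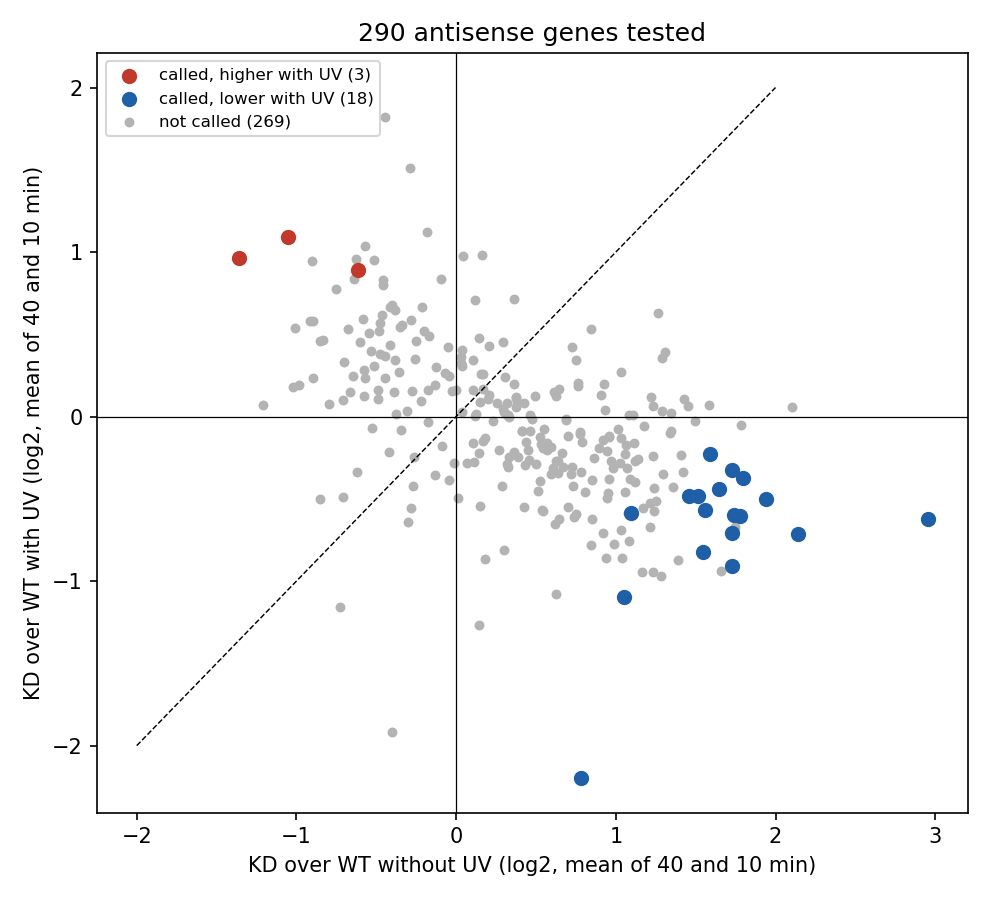
Log2 KD over WT without UV (x axis) against that with UV (y axis), each the mean of the pairs at 40 and 10 min, for the tested antisense genes. The dashed line marks equal values. The 18 called lower lie to the right of 0 and below it, and the 3 called higher lie to its left and above it.

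Among the antisense genes that stood at least 3 times above the silent density in all 8 libraries, 2 of 59 were called higher (3.39%) and 8 lower (13.6%), with a median of -0.43. The same filter over all genes gave 10.4% higher and 3.81% lower of 7004, with a median of 0.70. Among the 231 tested antisense genes below this limit 0.433% were called higher and 4.33% lower, with a median of -0.61. All tested genes below it had 1.59% called higher and 4.03% lower, with a median of -0.31. Antisense genes of 5 to 20 kb had a median of -0.78 with 1 call higher and 10 lower among 100 (1.0% and 10.0%). Over all genes of this span the median was 0.19, with 8.20% called higher and 3.62% lower. Those of 1 to 5 kb had a median of 0.57, against 0.83 over all genes of this span. In the 4 single pairs of libraries, the median log2 KD over WT of the antisense genes was -0.05 with UV at 40 min, -0.07 with UV at 10 min, 0.56 without UV at 40 min and 0.26 without UV at 10 min. For the silent loci these were -0.37, -0.13, 1.26 and 0.42, and for all genes 0.09, 0.10, 0.02 and -0.11.

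By arrangement, the median term was -0.13 for head to head antisense genes against 0.67 for their sense genes, and -0.46 against 0.46 in tail to tail pairs. It was -1.22 against -0.87 where the antisense gene lay inside the sense gene, -0.79 against -0.36 where they overlapped at the start, and -0.88 against -0.56 where they did not touch. In each of these arrangements the antisense median was the lower.

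**Figure D4:**
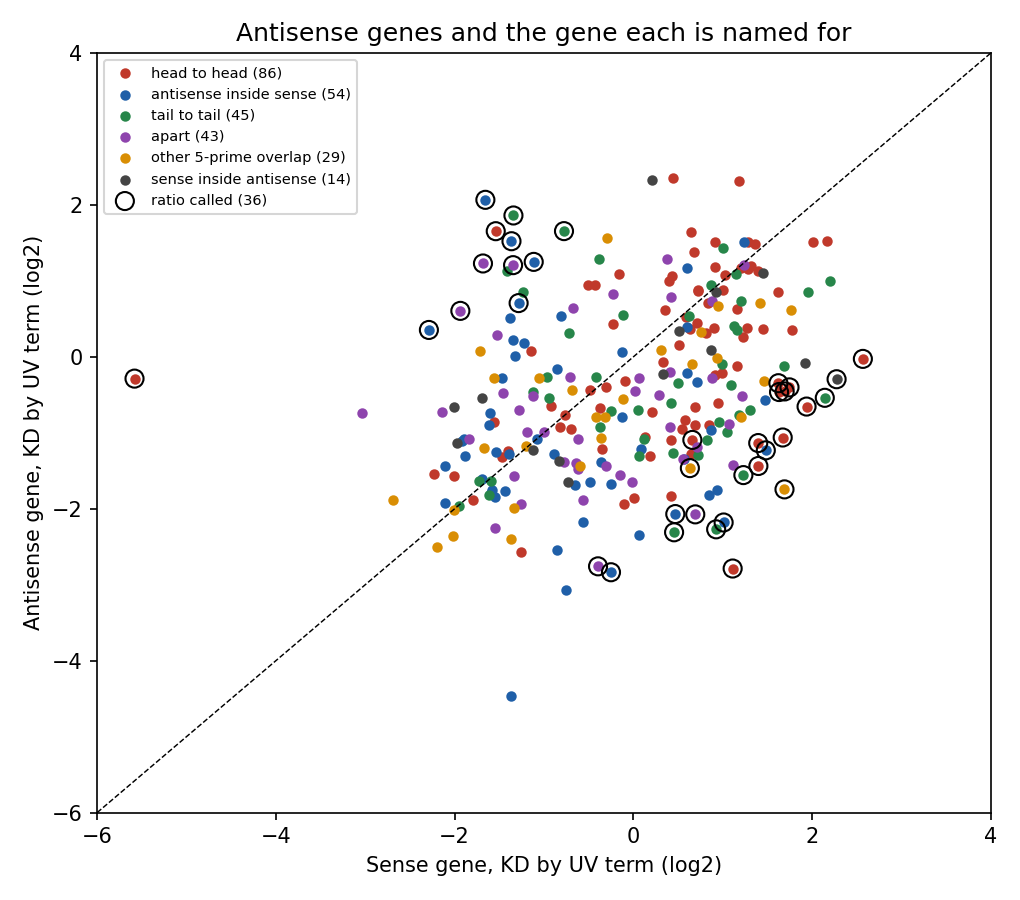
Log2 change of the antisense gene (y axis) against that of its sense gene (x axis) for the knockdown by UV term in the 271 tested pairs, coloured by arrangement, with a dashed line where both are equal and rings around the 36 pairs whose ratio was called. The partners had the same sign in 159 pairs (58.7%, against 60.9% of the 2382 other opposite-strand neighbours). Of the 36 ringed pairs 33 had opposite signs, which a call on the ratio favours.

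The ratio of antisense to sense reads showed where the partners of a pair parted. For the knockdown by UV term 36 of 271 named pairs were called (limma), 12 with a higher and 24 with a lower ratio, against 13% of all 2653 opposite-strand pairs, so the share among named pairs, 13.3%, was near that of all. In 33 of the 36 the terms of antisense and sense gene had opposite signs. A call on the ratio favours such pairs, and the share among the 308 other called pairs was not counted. The antisense gene itself was called in 7 of the 36 and the sense gene in 12. Of the 86 head to head pairs 2 were called with a higher and 11 with a lower ratio. Of the 54 pairs inside the sense gene it was 5 and 4. Shares by direction over the other opposite-strand pairs were not counted. For the counts that follow, shares over all opposite-strand pairs in the same fit are not given. Without 1 library the count lay between 3 (without KD no UV at 40 min) and 61 (without WT no UV at 10 min). It was 5 without KD with UV at 10 min, 11 without KD no UV at 10 min and 12 without KD with UV at 40 min. It was 24 without WT with UV at 40 min.

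ZNF561-AS1 over ZNF561 had a lower ratio (-3.98 ± 0.62, limma adjusted p = 0.00763) and was called without any one library, at -4.58 to -3.39. BOK-AS1 over BOK, the gene of a BCL-2 family protein, was higher by 5.19 ± 0.83 (limma adjusted p = 0.00824) and was likewise called each time, at 4.09 to 6.29. No other of the 36 was called in all 8 of these fits. In the second pair the antisense gene was nearly even, at 3.42 and 2.72 CPM in KD with UV at 40 and 10 min, against 2.71 and 2.92 CPM in WT, and without UV at 1.91 and 2.84 CPM in KD, against 1.69 and 1.85 CPM in WT. BOK itself had 42.2 and 62.4 CPM in KD with UV, against 390 and 1631 CPM in WT, and without UV 60.9 and 55.8 CPM in KD, against 10.5 and 40.2 CPM in WT. The ratio thus turned on the sense gene (term -5.58, edgeR adjusted p = 0.00363).

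SLC44A3-AS1 and SLC44A3, a choline transporter-like gene, start 76 bp apart. SLC44A3-AS1, at chr1:94657533-94820281 on the minus strand, had 596 and 409 CPM in KD with UV at 40 and 10 min, against 220 and 263 CPM in WT, and without UV 233 and 236 CPM in KD, against 293 and 416 CPM in WT. SLC44A3 had 11.4 and 14.3 CPM in KD with UV, against 20.7 and 22.8 CPM in WT, and without UV 19.9 and 18.3 CPM in KD, against 10.8 and 11.6 CPM in WT. Each partner was the mirror of the other in all 4 pairs, and the ratio was higher by 3.13 ± 0.53 (limma adjusted p = 0.00875). Without KD no UV at 40 min its limma adjusted p was 0.0532. The antisense gene alone had a term of 1.65 ± 0.50 (edgeR adjusted p = 0.0512).

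FGD5-AS1 and FGD5, a gene of endothelial cells, were chosen for description after their values were seen. FGD5-AS1 had 71.6 and 44.6 CPM in KD with UV, against 58.0 and 42.6 CPM in WT, and without UV 23.1 and 22.1 CPM in KD, against 43.7 and 48.5 CPM in WT. The main separation was between the pairs without UV. FGD5 had 24.8 and 33.4 CPM in KD with UV, against 30.0 and 45.1 CPM in WT, and without UV 30.0 and 51.7 CPM in KD, against 8.75 and 26.1 CPM in WT. The ratio was higher by 2.93 ± 0.48 (limma adjusted p = 0.00841).

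TSPEAR-AS2 (3.57) and LHFPL3-AS2 (3.18) were the other higher ratios of largest size, and HAS2-AS1 (-3.41), SRD5A3-AS1 (-3.17) and IGF2BP2-AS1 (-3.17) the other lower ones. HAS2 makes hyaluronan, a matrix sugar that fibroblasts secrete. SPAG5-AS1, head to head with the gene of a spindle protein and named after its values were seen, also had a lower ratio (-2.77). Its sense gene SPAG5 was itself called, with a term of 1.67. THAP9-AS1, the densest member, had no call, at 371 and 269 CPM in KD with UV against 280 and 248 CPM in WT, and without UV 191 and 168 CPM in KD against 170 and 207 CPM in WT. Its partner THAP9 was called, at 1.78 (edgeR adjusted p = 0.0479).

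**Figure D5:**
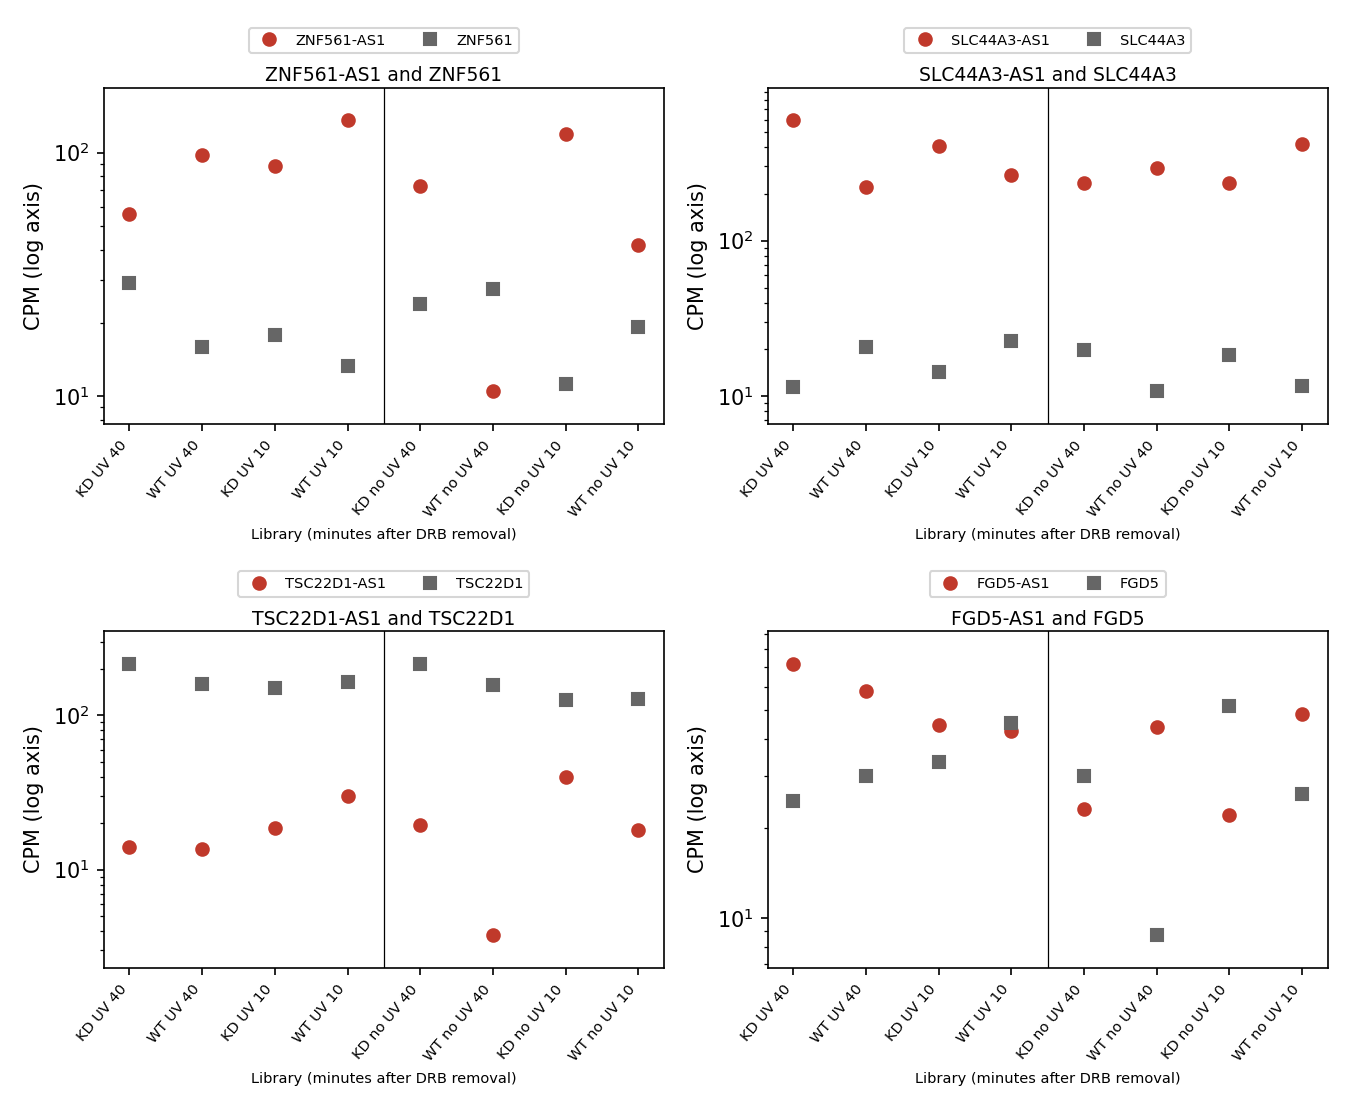
CPM (log axis) of 4 antisense genes and their sense genes in each of the 8 libraries, KD left of WT. ZNF561-AS1 lies at 10.5 CPM in WT without UV at 40 min and at 41.7 to 136 CPM in the other 7, and SLC44A3-AS1 and SLC44A3 run in opposite directions.

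The name of an antisense gene does not always give the gene that shares its start. Of 138 antisense genes with an opposite-strand start within 1000 bp, 110 had that of the named sense gene and 28 that of another gene. FGD5-AS1 starts 222 bp from NR2C2, the gene of an orphan nuclear receptor, PSMA3-AS1 256 bp from ARID4A, a chromatin gene, and CDKN2B-AS1 167 bp from CDKN2A, the gene of p16. These genes were picked after their values were seen. For time, the antisense gene and the gene at its start had the same sign in 21 of 27 tested pairs of the second kind and in 53 of 86 head to head pairs of the first kind. For the knockdown by UV term the counts were 16 of 27 and 52 of 86, and the difference between the kinds was not tested. Over the 2382 opposite-strand neighbours not paired by name, the share with the same sign was 63.0% for time and 60.9% for this term. ARID4A had a time difference of 1.24 (edgeR adjusted p = 0.0585), beside 1.56 for PSMA3-AS1.

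Lists of antisense genes by the name of the sense gene were small. Among 12 tested members whose names start like those of developmental regulators (HOX, FOX, PAX and others), 0 were called higher and 2 lower for the knockdown by UV term, FOXD3-AS1 and PAXIP1-AS2, with a median of -1.14. By their prefix they include PAXIP1-AS2 and PAXBP1-AS1, named for proteins that bind PAX factors, and without these 0 were called higher and 1 lower of 10. Of 5 named for matrix and cytoskeleton genes 0 were called higher and 1 lower (-1.17), and of 6 named for genome maintenance and cell cycle genes 1 was called higher and 0 lower (0.99). Of 22 widely studied members, CDKN2B-AS1, MCM3AP-AS1 and FGD5-AS1 among them, 19 were tested and the counts were 1 and 2, with a median of 0.36. Over all antisense genes tested the median was -0.54, with 1.03% called higher and 6.21% lower.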

How the data were processed

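The authors aligned strand-specific GRO-seq reads to hg38 with BWA 0.5.9 and SAMtools, per the submitters' processing notes, and deposited raw read counts per annotated transcript, introns included, as 1 table per library. For the counter, its strand setting and the annotation the sources used here give no name. The 41581 transcripts were reduced to the longest of each gene name.

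Counts of all genes were tested with the quasi-likelihood F-test of edgeR 4.0.16 in R 4.3.3, with TMM scaling and filterByExpr (minimum count 10, minimum total 15), which kept 17840 genes. Time, UV and knockdown were additive terms over all 8 libraries (4 residual degrees of freedom), and knockdown by UV and UV by time were each added to them (3 residual degrees of freedom). The antisense to sense ratio, the difference of log2 CPM with a prior count of 2, was tested with limma 3.58.1 over 2653 pairs of tested neighbours on opposite strands. Benjamini-Hochberg adjustment covered all genes or all pairs, at a threshold of 0.05. DESeq2 1.42.0, limma-voom, other scalings, filters, transcripts and each left-out library were alternatives. The edgeR test and the ratio test were tried on simulated counts with known changes.

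Levels are CPM scaled by TMM, and errors beside log2 values are standard errors. Silent density is the median CPM per kb of 90 genes of tissue-restricted families, chosen after seeing the data. No column of the tables was left out.

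The members and the gene lists were chosen with earlier results of these data known. Genes were named by a rule. For each edgeR term it took the called members with the largest change, up to 6 per direction, or without calls the 3 smallest p-values per direction. For each ratio it took up to 4 called per direction, or the 2 smallest p-values. It further took the 8 members with the most reads per kb, the 2 pairs with the most antisense reads per kb of each arrangement and the 8 widely studied members with the highest levels. A few genes taken by the rule are not reported here, and SLC25A34-AS1 was not analysed here. Motifs were searched in RefSeq windows of GRCh38.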

Additional observations from a re-analysis of the deposited data

Results flagged for a closer look

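For 21 antisense genes and 36 antisense to sense ratios, the KD over WT difference with UV departed from that without UV by the test of the difference itself (edgeR and limma). The 3 antisense genes with a higher term were SLFNL1-AS1 (2.32), RNASEH1-AS1 (2.31) and GABPB1-AS1 (1.51). The lowest terms were those of TMEM108-AS1 (-4.46), FOXD3-AS1 (-3.0), KCNMA1-AS1 (-2.84), ZNF561-AS1 (-2.79), ATP11A-AS1 (-2.76) and ITGB2-AS1 (-2.57).

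For the ratio to the sense gene, the highest terms were those of BOK-AS1 (5.19), TSPEAR-AS2 (3.57), LHFPL3-AS2 (3.18) and SLC44A3-AS1 (3.13), and the lowest those of ZNF561-AS1 (-3.98), HAS2-AS1 (-3.41), IGF2BP2-AS1 (-3.17) and SRD5A3-AS1 (-3.17). All rest on 1 library per condition. Most of the 21 gene calls and most of the 36 ratio calls were lost whenever a single KD library was left out. Without WT no UV at 40 min, the library with the lowest silent density, 13 of the 21 genes and 28 of the 36 ratios were still called.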

How the results depend on the processing

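For 40 over 10 min, the 0 calls among antisense genes became 7 with RLE scaling, 2 without a filter on low counts, 20 with DESeq2 and 4 with the transcript of the most reads per kb, and 0 to 25 when 1 library was left out. For knockdown by UV, the 21 calls became 59 with RLE scaling, 46 with library totals, 58 with DESeq2 and 33 with limma-voom, and 0 to 99 when 1 library was left out. For time, RLE scaling called 1.97% of all genes and 2.41% of antisense genes. Without the filter these shares were 0.839% and 0.556%, and with the densest transcript 1.06% and 1.37%. Over all genes the knockdown by UV calls were 4788 with RLE scaling (26.8%, against 20.3% of antisense genes). They were 2926 with library totals (16.4% against 15.9%). DESeq2 called 28.7% against 20%, and limma-voom 12.9% against 11.4%. Among genes that averaged at least 3 times the silent density it was 18.7% against 27.5%. Library totals gave an all-gene median of -0.06 for this term, against 0.11 with TMM, and of -0.24 for time, against -0.10, and RLE scaling gave 0.14 for UV by time, against 0.30. Medians of the antisense genes were -0.73 and -0.49 with totals and 0.22 with RLE. The 36 called ratios for the same term became 15 with at least 50 reads in every library and 10 among pairs that do not overlap, where fewer pairs were tested, and 3 to 61 when 1 library was left out. Shares over all opposite-strand pairs are not given for these ratio counts. The level of antisense over sense gene, -0.99, was -0.64 without overlap and -1.57 with the silent density subtracted. The cause of the other shifts was not tested. UV, KD and UV by time gave 0 calls under each alternative run, leaving out 1 library included, with limits as in the report. Of 706 values of single named genes under these alternatives, 620 kept direction and side of the threshold, 33 newly passed it, 53 no longer did and 0 changed direction. Each matched pair of KD and WT libraries (same UV and time) was also made a block, chosen after seeing the data. There KD over WT gave 0 calls and knockdown by UV 70 (24.1%, against 35.2% of all genes). A block by replicate number could not be fitted, since each group holds 1 library. A silent density from olfactory receptor genes was not run, since the tables hold 1 such gene. At 10.2 to 21.1 M reads, 70 antisense genes had too few reads to test.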
